A study of Rattus norvegicus with 12 samples.

Results

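The cell cycle and mitosis genes examined here are 48 genes chosen by name from the known machinery of cell division, from the cyclins that start the cycle to the proteins that cut the daughter cells apart. Of these, 47 were found by gene name among the 32545 genes of the table, and Ccnb2 was not analysed here. All 47 passed the filter on low values (a mean of at least 0.5 FPKM, fragments per kilobase of gene length scaled by library depth, over the 12 libraries), as did 13910 genes in all. RNA came from the free walls of the left ventricle (LV) and the right ventricle (RV) of Sprague–Dawley (SD) rats, taken at P7. At P1 the pups had undergone either a fistula operation joining the abdominal aorta to the inferior vena cava, which imposes volume overload (VO) on both ventricles, or a sham operation. The 4 groups were the LV and RV of sham pups (sham LV and sham RV) and those of VO pups (VO LV and VO RV), with 3 libraries each, and no gene was altered in any of them. How many animals stand behind a library is not stated in the sources used here, so p values measure the spread between these libraries.

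The libraries held 14121713 to 16871371 reads on genes, and the least covered of the 47 genes in any library, Cdk6, had 48 reads. The myocardium label was checked against 9 cardiomyocyte markers, which summed to between 14776 and 23078 FPKM in every library. A pair of RV libraries, called atrial-rich here, stood apart. The sum of 5 atrial cardiomyocyte markers was 4559 FPKM in VO RV replicate 2 and 1065 FPKM in sham RV replicate 1, against 212 to 311 FPKM in the other RV libraries. The LV libraries ranged from 706 to 1729 FPKM on this sum, so on it sham RV replicate 1 stood apart only from the RV libraries. With Nppa left out of the markers, the sum was 440 FPKM in sham RV replicate 1 against 187 to 306 FPKM in the LV libraries. Fibroblast markers were also highest in these libraries, at 4935 and 3640 FPKM. The libraries also differed in their Y-linked genes, whose summed level was at least 56.1 FPKM in 5 libraries (sham LV 1 and 2, sham RV 1 and 2, and VO RV 3) and at most 0.373 FPKM in the others, so that no VO LV library had them. The medians over the 47 genes in comparisons that use the RV are given with and without the atrial-rich libraries.

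A dividing cell passes through growth, DNA replication and mitosis, each started by cyclins that switch on cyclin-dependent kinases (CDKs). D-type cyclins with Cdk4 or Cdk6 inactivate the retinoblastoma protein, which frees E2F factors to switch on replication genes. Later, the MuvB complex with Mybl2 and Foxm1 switches on the mitosis genes. CDK inhibitors of the Cip/Kip family restrain the kinases. In the rodent heart, cardiomyocytes leave the cycle in the days after birth, many after a last round of replication without cell division, while fibroblasts, endothelial cells and macrophages go on dividing. RNA of a whole free wall pools all of these cells, and fewer dividing cells cannot be told apart from less of a transcript per cell.

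Promoters of these genes were searched for motifs of cell cycle regulation, so more matches than in promoters at large could be foreseen. Promoter windows of 300 bases, 250 before and 50 after the annotated start, were found for 33 of the 47 genes in the RefSeq sequences of build GRCr8. The 4 shown here belong to genes of entry into mitosis (Ccnb1 and Cdk1), of chromosome untangling (Top2a) and of replication (Mcm2), and are written 5′ to 3′ along the gene. Capitals mark matches, on either strand, to the cell cycle genes homology region (CHR, searched as TTTGAA and also as TTCGAA), to the CCAAT box (its name is its sequence) or to an E2F core. The E2F core was searched as TTCCCGC, then with other middle bases as TTGGCGC, also as TTCGCGC, and lastly as TTGCCGC. Ccnb1 lies at chr2:33655176-33655475 on the minus strand, Cdk1 at chr20:19265043-19265342 on the plus strand, Top2a at chr10:84473044-84473343 on the minus strand and Mcm2 at chr4:122918045-122918344 on the minus strand.
Ccnb1: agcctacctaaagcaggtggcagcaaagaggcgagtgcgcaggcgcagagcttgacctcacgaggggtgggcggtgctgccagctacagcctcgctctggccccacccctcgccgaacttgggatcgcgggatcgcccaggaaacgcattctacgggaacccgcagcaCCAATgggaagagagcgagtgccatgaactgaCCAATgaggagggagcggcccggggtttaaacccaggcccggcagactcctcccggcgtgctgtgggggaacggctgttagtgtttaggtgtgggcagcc
Cdk1: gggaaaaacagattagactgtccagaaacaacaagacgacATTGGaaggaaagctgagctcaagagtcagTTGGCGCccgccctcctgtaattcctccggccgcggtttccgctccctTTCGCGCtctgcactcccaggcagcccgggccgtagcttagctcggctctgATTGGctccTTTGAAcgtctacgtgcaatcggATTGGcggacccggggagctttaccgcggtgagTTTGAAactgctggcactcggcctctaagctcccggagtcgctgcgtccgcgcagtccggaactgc
Top2a: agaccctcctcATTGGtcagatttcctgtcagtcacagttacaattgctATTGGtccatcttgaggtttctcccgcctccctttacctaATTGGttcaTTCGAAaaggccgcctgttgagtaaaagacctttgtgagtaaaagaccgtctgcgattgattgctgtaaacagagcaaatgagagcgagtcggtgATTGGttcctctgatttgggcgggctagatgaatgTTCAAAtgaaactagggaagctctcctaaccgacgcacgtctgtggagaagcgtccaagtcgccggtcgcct
Mcm2: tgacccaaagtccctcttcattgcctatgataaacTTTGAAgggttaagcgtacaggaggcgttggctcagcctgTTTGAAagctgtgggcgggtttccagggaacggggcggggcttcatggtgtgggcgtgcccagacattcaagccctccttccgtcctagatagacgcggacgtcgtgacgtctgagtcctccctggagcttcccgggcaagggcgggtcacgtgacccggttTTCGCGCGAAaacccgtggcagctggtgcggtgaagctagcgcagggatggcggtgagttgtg
The Cdk1 window held CHR matches whose first bases lay at −72 and −16 from the start, with CCAAT boxes at −210, −81 and −49, and E2F cores at −180 and −132. The Top2a window paired CHR matches at −152 and −22 with 4 CCAAT boxes and no E2F core. The Ccnb1 window held CCAAT boxes alone, at −82 and −50. In the Mcm2 window, CHR matches lay at −215 and −175, and E2F cores read on opposite strands overlapped at −13 and −10.

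Over the 33 windows, a CHR match was present in 16 (48.5%, against 19.7% of all 33469 RefSeq promoter windows) and a CCAAT box in 23 (69.7% against 37.5%). An E2F core was present in 11 windows (33.3% against 9.52%). CHR and CCAAT matches occurred together in 12 windows (36.4% against 7.95%), and 6 windows held none of the motifs (18.2% against 45.5%). Of 16 promoters of mitosis genes (mitotic kinases and checkpoint, anaphase-promoting complex, spindle and cytokinesis), 11 held a CHR match, 11 a CCAAT box and 2 an E2F core. Of 6 promoters of replication genes, 2 held a CHR match, 5 a CCAAT box and 5 an E2F core. Matches to different motifs overlapped 4 times in the 33 windows. The 33469 windows were not limited to the genes tested here. A match shows only that these letters are present.

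**Figure D1:**
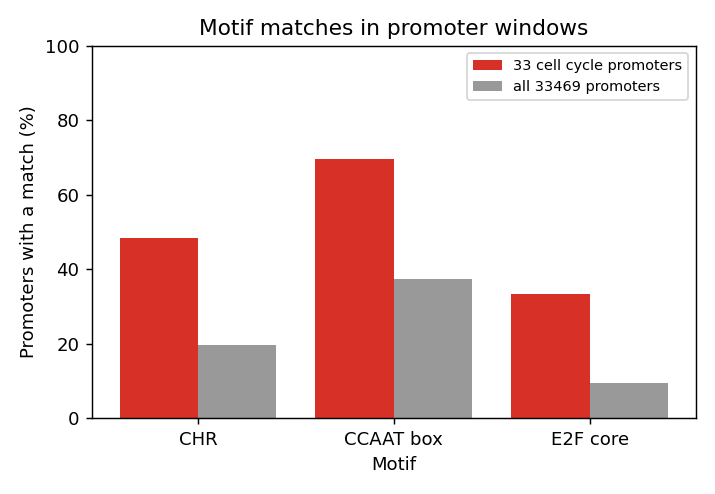
Share of promoter windows with at least 1 match to each motif (y axis, percent) for the 33 windows of cell cycle genes and for all 33469 windows. The E2F core was present in 33.3% of the former and 9.52% of the latter.

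At P7 these genes were expressed in both ventricles at mean levels from 2.73 FPKM (E2f8, a repressive E2F factor) to 123 FPKM (Ccnd3, cyclin D3), with a median of 12.2 FPKM. The ratio of the highest to the lowest of the 12 libraries was under 2 for 41 of the 47 genes and had a median of 1.53. The narrowest was Mcm7, a subunit of the replicative helicase, with a ratio of 1.27. Ccnd2, cyclin D2, had the widest ratio, 6.11, followed by Anln (2.78), Cdkn1c (2.49), Racgap1 (2.25), E2f8 (2.11) and Cdk6 (2.09).

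**Figure D2:**
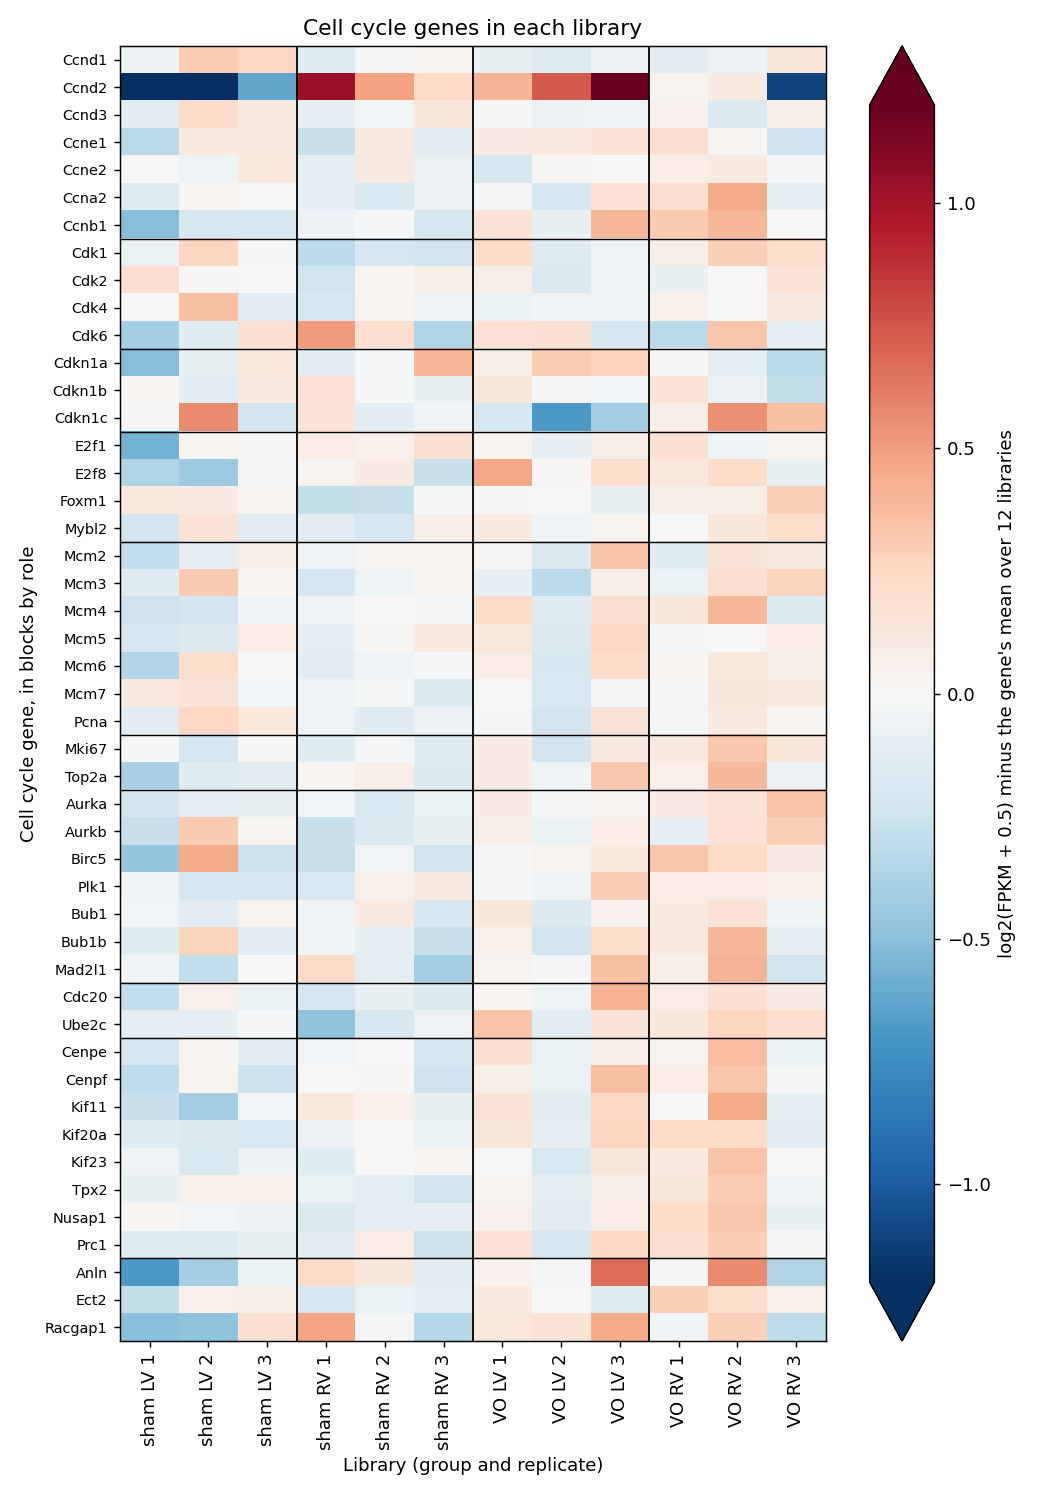
Each row is a cell cycle gene, in blocks by role, and each column a library; colour shows log2(FPKM + 0.5) minus the mean of the gene over the 12 libraries, with values beyond 1.2 shown at the end of the scale. Most rows are pale, Ccnd2 is the most uneven row, and VO RV replicate 2 is above the gene's mean in 42 of 47 rows.

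The D-type cyclins carry mitogen and stretch signals into the cycle, and Ccnd2 was the only 1 of the 47 genes to pass the test in any comparison. Ccnd2 (ENSRNOG00000057710, chromosome 4, 159674885 to 159697207, minus strand, as the table lists it) was at 18.9, 20.6 and 31.2 FPKM in sham LV and at 98.9, 67.9 and 57.1 FPKM in sham RV. In VO LV it was at 64.3, 80.7 and 116 FPKM, and in VO RV at 49.96, 51.7 and 22.0 FPKM. The order of the libraries was reversed: the lowest sham RV library lay above the highest sham LV library, and under VO the lowest LV library lay above the highest RV library. Of all tested genes, 16.6% had every sham LV library below every sham RV library, and 8.45% had every VO LV library above every VO RV library. The difference between the VO ventricles did not pass the test given below. The group means were 23.6 ± 6.67 (SD, n = 3), 87.0 ± 26.3, 74.6 ± 21.7 and 41.2 ± 16.6 FPKM in sham LV, VO LV, sham RV and VO RV. Between 412 and 2795 reads lay on Ccnd2 in each library, so counting error is small beside the spread between libraries.

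Differences were tested with limma on log2(FPKM + 0.5), a scale that understates the change of low genes, and a gene was called differentially expressed (DEG) where its Benjamini-Hochberg adjusted p was under 0.05 and its fold change exceeded 1.3. A weaker threshold, named here the nominal one, took the unadjusted p in place of the adjusted p. Ccnd2 was at a 3.11-fold lower level in sham LV than sham RV (log2 difference −1.64, standard error 0.34, limma adjusted p = 0.0356). It was 3.61-fold higher in VO LV than in sham LV (log2 difference 1.85, standard error 0.34), which narrowly missed the threshold (limma adjusted p = 0.0523). In the RV the log2 difference of VO from sham was −0.90 (limma adjusted p = 0.558), and between VO LV and VO RV it was 1.12 (limma adjusted p = 0.296). The LV response to VO exceeded that of the RV by 2.75 (log2), a 6.74-fold difference (standard error 0.48, limma adjusted p = 0.0257). In each of the 4 comparisons between groups the libraries did not overlap, and the exact two-sided permutation test gave p = 0.10, the smallest that 3 libraries against 3 allow. The Ccnd2 levels of sham LV enter both the ventricle difference and the LV response, so these are not separate observations.

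The Ccnd2 calls depended on single libraries. When single libraries were left out, the difference between sham LV and sham RV ranged from −1.85 to −1.42 and its limma adjusted p from 0.0145 to 0.138. Its call ended without sham LV replicate 1 or 2, any of the sham RV replicates or VO LV replicate 2. The difference of the responses ranged from 2.35 to 2.97, with limma adjusted p from 0.0162 to 0.0831, and its call ended without sham LV 1 or 2, sham RV 1 or 2, or VO LV 2 or 3. Without VO RV replicate 3, its lowest library there, the RV difference was −0.50 and that of VO LV from VO RV 0.72. Without both atrial-rich RV libraries, the ventricle difference was −1.42 (limma adjusted p = 0.117) and the response difference 2.75 (limma adjusted p = 0.0590). With the level of Y-linked genes as a covariate, the LV response was 1.58 (limma adjusted p = 0.270) and the response difference 2.63 (limma adjusted p = 0.0447). Among libraries low in Y-linked genes, Ccnd2 was at 87.0 FPKM in VO LV (n = 3) against 31.2 FPKM in the sham LV library left, and at 50.8 FPKM in VO RV (n = 2) against 57.1 FPKM in the sham RV library left. Among those libraries the RV difference was −0.16 (log2).

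Neither of the other D cyclins followed Ccnd2. Ccnd1, cyclin D1, was at 32.95, 42.9 and 41.3 FPKM in sham LV, 32.3, 31.0 and 33.03 in VO LV, 31.0, 34.4 and 35.3 in sham RV and 31.7, 32.6 and 38.2 in VO RV. Its groups overlapped in every comparison, and its log2 difference of VO LV from sham LV was −0.27 (limma adjusted p = 0.176). Ccnd3 averaged 130 ± 16.1, 119 ± 1.80, 123 ± 10.7 and 121 ± 11.9 FPKM in sham LV, VO LV, sham RV and VO RV (SD, n = 3 each). As FPKM are per gene length, the cyclins can be set beside each other. Ccnd2 made up 12.2% ± 2.67 of the summed D-cyclin FPKM in sham LV, 36.1% ± 6.94 in VO LV, 32.1% ± 7.83 in sham RV and 20.8% ± 8.09 in VO RV. Ccnd3 was the most abundant D cyclin in every group mean, with shares of 67.5%, 50.3%, 53.4% and 61.7% in the same order. The D cyclins summed to 192 ± 24.6 FPKM in sham LV, 238 ± 25.9 in VO LV, 231 ± 11.2 in sham RV and 197 ± 10.8 in VO RV.

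**Figure D3:**
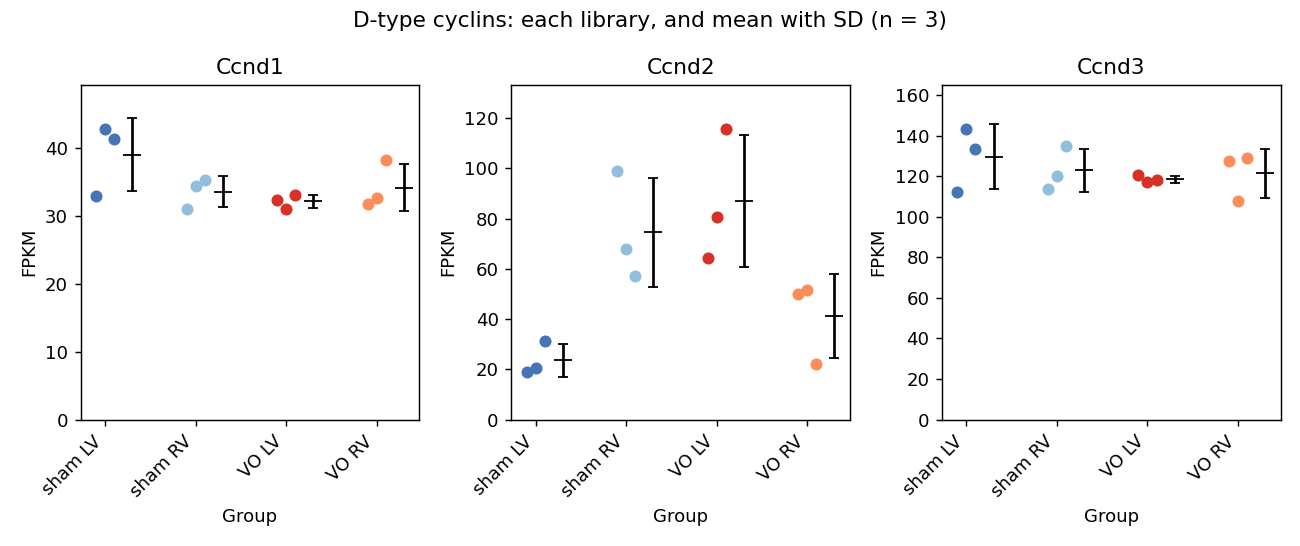
FPKM (y axis, from 0) of Ccnd1, Ccnd2 and Ccnd3 in the 4 groups; coloured points are libraries and the black marks give the mean with SD (n = 3). Only Ccnd2 separates the groups, with sham LV at 18.9 to 31.2 FPKM and VO LV at 64.3 to 116 FPKM.

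Between the sham ventricles, the cell cycle genes as a set were level. Ccnd2 was the 1 DEG among 47, in a comparison where 3.98% of all tested genes were DEGs. The log2 difference of LV from RV was above 0 for 25 of 47 genes (51.8% of all tested genes), with a median of 0.02 against 0.01 over all tested genes (24 of 47 and 0.0016 without both atrial-rich libraries), and the 46 genes other than Ccnd2 lay between −0.47 and 0.30. At the nominal threshold 0 genes were higher in sham LV (8.28% of all tested genes were) and 1, Ccnd2, was lower (9.55%). The 3 smallest p values in each direction were those of Foxm1, Cdk1 and Ccnd1, higher in the LV mean, and of Ccnd2, E2f1 and Anln, lower in it. Foxm1, the transcription factor of the mitosis genes, was at 8.88, 8.74 and 8.23 FPKM in sham LV and 6.53, 6.59 and 8.01 FPKM in sham RV, a log2 difference of 0.28 (limma adjusted p = 0.120). Cdk1, the kinase that drives mitosis, was at 29.9, 37.9 and 31.5 FPKM in sham LV and 25.4, 27.5 and 27.0 FPKM in sham RV, a log2 difference of 0.30 (limma adjusted p = 0.137) that was 0.20 without sham LV replicate 2. The libraries of both genes did not overlap. E2f1, an activating E2F factor, was at 5.26, 8.20 and 8.08 FPKM in sham LV and at 8.57, 8.42 and 9.18 FPKM in sham RV. The E2f1 difference of −0.29 (limma adjusted p = 0.240) shrank to −0.09 without sham LV replicate 1. In all, 3 genes had every LV library above every RV library (15.6% of all tested genes did) and 4 had every LV library below (16.6%). Endothelial markers, which were higher in the LV (498 to 549 FPKM against 348 to 383 FPKM in the RV; 7 of 7 above 0, 3 of them DEGs), and macrophage markers (112 to 126 against 83.5 to 95.9 FPKM) moved with this comparison. Red blood cell markers had a median log2 difference of 0.68 (4 of 4 tested were above 0, 3 higher at the nominal threshold), 4 of 9 cardiomyocyte markers were lower at that threshold (1 of them a DEG), and 0 of 8 fibroblast markers were above 0. The part of these cells in the Ccnd2 difference was not tested.

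Under VO, the LV had no DEG among the 47 genes, where 0.0863% of all tested genes were DEGs. At the nominal threshold, 4 genes were higher (Ccnd2, Ccnb1, E2f8 and Anln; 9.14% of all tested genes) and 1, Cdkn1c, was lower (6.56%). The differences leaned upward: 35 of 47 were above 0 (74.5%, against 46.9% of all tested genes), with a median of 0.14 against −0.02. Groups did not overlap for 8 genes that were higher in VO (17%), close to the 16.7% of all tested genes, and for 1 gene that was lower (2.13% against 15.7%). Ccnb1, cyclin B1, which takes cells into mitosis with Cdk1, was at 11.0, 13.9 and 13.9 FPKM in sham LV and 17.9, 14.9 and 21.3 FPKM in VO LV. All VO LV libraries lay above all sham LV libraries, and the log2 difference was 0.46 (standard error 0.15, limma adjusted p = 0.105). In the RV, Ccnb1 was at 15.1, 15.7 and 13.9 FPKM in sham and 19.9, 20.9 and 16.0 FPKM in VO, again without overlap (log2 difference 0.33, limma adjusted p = 0.584). E2f8 was at 1.98, 1.85 and 2.63 FPKM in sham LV and 3.90, 2.70 and 3.21 FPKM in VO LV, a log2 difference of 0.50 (limma adjusted p = 0.119). Its RV groups overlapped, at 2.76, 2.92 and 2.15 FPKM in sham and 2.99, 3.18 and 2.50 FPKM in VO.

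Anln and Racgap1, which act in cytokinesis, the final cut between daughter cells, held the largest upward LV differences after Ccnd2. Anln, the anillin scaffold of the cleavage furrow, was at 3.74, 4.65 and 5.97 FPKM in sham LV and 6.60, 6.23 and 10.4 FPKM in VO LV, a log2 difference of 0.63 (limma adjusted p = 0.169) that was 0.41 without VO LV replicate 3. In the RV, Anln was at 7.56, 7.00 and 5.70 FPKM in sham and 6.40, 9.56 and 4.82 FPKM in VO, and the groups overlapped. Racgap1, a central spindle protein, was at 1.75, 1.78 and 3.12 FPKM in sham LV and 2.96, 3.07 and 3.86 FPKM in VO LV, a log2 difference of 0.51 with overlapping groups. It was at 3.93, 2.66 and 2.01 FPKM in sham RV and 2.60, 3.35 and 2.07 FPKM in VO RV. Neither gene passed the test in any comparison. Ect2, the exchange factor that starts furrow ingression, was at 4.70, 6.09 and 6.13 FPKM in sham LV and 6.35, 5.79 and 5.24 FPKM in VO LV, which overlapped (log2 difference 0.04, and −0.08 without sham LV replicate 1). In the RV, Ect2 was at 5.04, 5.48 and 5.36 FPKM in sham and 7.21, 6.75 and 6.08 FPKM in VO, without overlap (log2 difference 0.31).

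The upward lean of the LV depended on which libraries entered. Sham LV replicate 1 was the lowest of all 12 libraries for 21 of the 47 genes, and without it the median LV difference was 0.05, with 28 of 47 genes above 0. Without VO LV replicate 3 it was 0.09 (30 of 47). With the Y-linked covariate it was 0.09 (31 of 47), and with each library's trend on gene length removed it was 0.08 (28 of 47). Among the libraries low in Y-linked genes, 3 of VO LV against 1 of sham LV, it was 0.06 with 27 of 47 above 0. Endothelial markers were at 393 to 437 FPKM in VO LV against 498 to 549 FPKM in sham LV, and cardiomyocyte markers at 20763 to 23078 against 18881 to 20634 FPKM. Of 9 cardiomyocyte markers (median log2 difference 0.40), 5 were higher at the nominal threshold (9.14% of all tested genes) and 1 lower (6.56%). Red blood cell markers had a median of −0.44 (0 of 4 tested above 0) and atrial markers one of 0.33 (4 of 5 above 0). Fibroblast markers were at 2063 to 2543 against 2594 to 2789 FPKM (1 of 8 above 0) and macrophage markers at 86.4 to 114 against 112 to 126 FPKM (1 of 8 above 0). The part of these cells in the LV values was not tested.

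In the RV, 0 of the 47 genes were DEGs by limma, as were 0% of all tested genes, and voom on the recovered reads also called 0 of the 47. At the nominal threshold, Cdk1 and Ube2c were higher (2 genes; 1.88% of all tested genes) and Ccnd2 was lower (3%). The differences were small but mostly of 1 sign: 39 of 47 genes were above 0 (83%, against 51.3%), with a median of 0.16 against 0.01. For 14 of 47 genes (29.8%) every VO RV library lay above every sham RV library, against 5.64% of all tested genes. These were Ccnb1, Cdk1, Foxm1, Mcm6, Mcm7, Pcna, Mki67, Aurka, Birc5, Cdc20, Ube2c, Tpx2, Nusap1 and Ect2, which span replication, mitotic entry, the spindle and mitotic exit. The 1 gene with every VO RV library below was Ccnd2 (6.87%).

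Cdk1 was at 33.6, 38.5 and 36.6 FPKM in VO RV against 25.4, 27.5 and 27.0 FPKM in sham RV, a 1.36-fold higher mean (log2 difference 0.44, standard error 0.12, limma adjusted p = 0.536). Ube2c, the ubiquitin-conjugating enzyme that works with the anaphase-promoting complex, was at 9.48, 10.3 and 9.98 FPKM in VO RV against 6.02, 7.49 and 8.25 FPKM in sham RV (log2 difference 0.44, limma adjusted p = 0.536). Mki67, the Ki-67 protein that coats mitotic chromosomes, was at 14.0, 16.1 and 14.3 FPKM in VO RV against 11.7, 12.8 and 11.6 FPKM in sham RV (log2 difference 0.29, limma adjusted p = 0.558). Each of these genes separated the RV groups without overlap, although the fold of Mki67 was only 1.23. In the LV the same 3 genes overlapped between groups, with log2 differences of −0.05 for Cdk1, 0.20 for Ube2c and 0.07 for Mki67. These LV values moved with single libraries: Cdk1 was −0.16 without VO LV replicate 1 and 0.051 without sham LV replicate 2, Ube2c was 0.094 without VO LV replicate 1 and 0.33 without VO LV replicate 2, and Mki67 was −0.0032 without sham LV replicate 2 and 0.18 without VO LV replicate 2. Mki67 was at 12.8, 11.1 and 13.1 FPKM in sham LV and 13.9, 11.0 and 14.1 FPKM in VO LV. Cdk1 in VO LV was at 37.0, 28.4 and 30.6 FPKM, and Ube2c was at 7.97, 7.88 and 8.50 FPKM in sham LV and 11.0, 7.80 and 9.69 FPKM in VO LV.

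VO RV replicate 2, the library richest in atrial markers, was also the highest of all libraries for 14 of the 47 genes. Without it the median RV difference was 0.10 with 39 of 47 genes above 0, and without it and sham RV replicate 1 the median was 0.09 with 34 of 47 above 0. The count of genes with no overlap was then 15 of 47 (31.9%, against 14.4% of all tested genes) and 16 of 47 (34%, against 18.5%). Without VO RV replicate 3 the median was 0.22. Without both atrial-rich libraries the Ube2c difference was 0.29. With the Y-linked covariate the median was 0.14 with 38 of 47 above 0, and among libraries low in Y-linked genes, 2 of VO RV against 1 of sham RV, it was 0.29 with 37 of 47 above 0. Macrophage markers were at 88.8 to 133 FPKM in VO RV and 83.5 to 95.9 FPKM in sham RV, with 7 of 8 above 0 and 3 of 8 higher at the nominal threshold (1.88% of all tested genes). Of 9 cardiomyocyte markers, 2 were lower at that threshold (median log2 difference −0.19). Fibroblast markers were at 2533 to 4935 FPKM in VO RV and 2770 to 3640 FPKM in sham RV, with 7 of 8 above 0 (median log2 difference 0.17, against 0.16 for the cell cycle genes). Of 7 endothelial markers 6 were above 0 (median 0.063), as were 5 of 5 atrial markers (median 0.74). Lymphocyte and thymus markers summed to at most 11.9 FPKM, with Rag2 and Ptcra under 0.1 FPKM in every library. The part of these cells in the result was not tested.

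**Figure D4:**
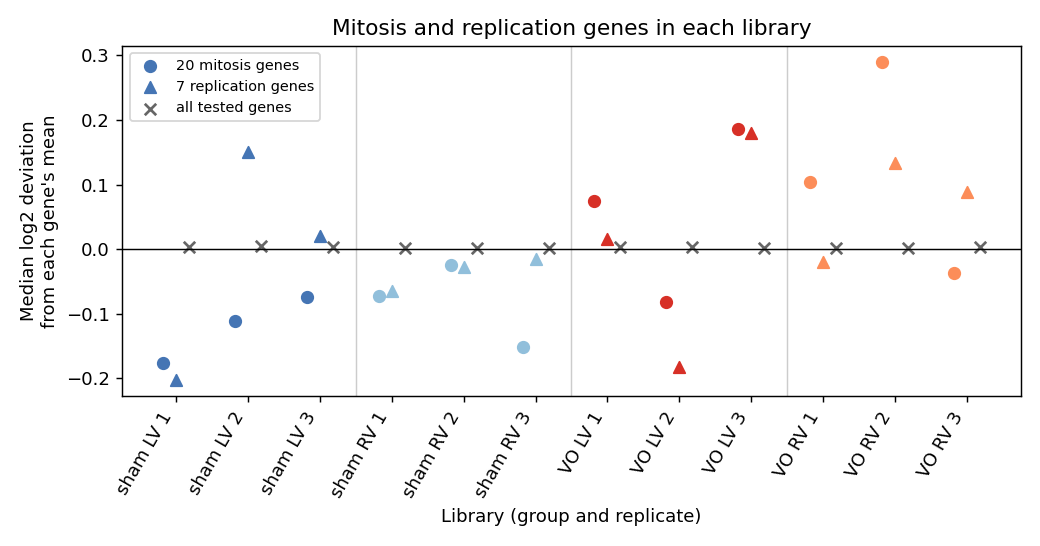
For each library (x axis), the median deviation of log2(FPKM + 0.5) from each gene's mean (y axis) over 20 mitosis genes (circles), 7 replication genes (triangles) and all tested genes (crosses). The mitosis genes were highest in VO RV replicate 2 (0.29) and lowest in sham LV replicate 1 (−0.18), while all tested genes stayed near 0.

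By role, most mitosis genes were above 0 in both ventricles. All 7 genes of the mitotic kinases and spindle checkpoint were above 0 in the LV (median 0.14) and in the RV (median 0.27), as were both genes of the anaphase-promoting complex (0.22 and 0.36). The LV differences of the latter genes, Cdc20 and Ube2c, were 0.092 and 0.19 without VO LV replicate 3. Of 8 spindle, kinetochore and motor genes, 7 were above 0 in the LV (median 0.18) and 8 in the RV (median 0.20). Of 3 cytokinesis genes, 3 were above 0 in the LV (median 0.51) and 1 in the RV (median 0.00). Over these 20 genes the RV median was 0.23 with 18 above 0, and it was 0.12 with 17 above 0 without VO RV replicate 2 and 0.17 with 17 above 0 without both atrial-rich libraries. In the LV, without sham LV replicate 1, 4 of the 7 kinase and checkpoint genes were above 0 (median 0.052) and 15 of the 20 mitosis genes (median 0.14, against 0.19 with all libraries). For the kinases and checkpoint, the RV median was 0.13 without VO RV replicate 2 (7 of 7 above 0) and 0.19 without both atrial-rich libraries (6 of 7). For the spindle genes the RV median was 0.10 and 0.12 in the same order (7 of 8 each). Top2a, the topoisomerase that separates sister chromatids, was at 15.7, 18.5 and 18.8 FPKM in sham LV and 22.2, 19.9 and 26.1 FPKM in VO LV (log2 difference 0.35, limma adjusted p = 0.161). In the RV it was at 21.1, 22.0 and 18.5 FPKM in sham and 21.6, 26.9 and 19.6 FPKM in VO, and the groups overlapped; its RV difference was 0.14, and 0.0096 without VO RV replicate 2. The regulators were less even. Of 7 cyclins, 4 were above 0 in the LV (median 0.02) and 5 in the RV (median 0.08), and of 4 CDKs 1 was in the LV (median −0.09) and 3 in the RV (median 0.11). Without both atrial-rich libraries these RV medians were 0.013 for the cyclins and 0.043 for the CDKs. Without sham LV replicate 2, Cdk1 (0.051) and Cdk4 (0.0086) were also above 0 in the LV. Of 4 transcription factors, 3 were above 0 in each ventricle (medians 0.14 and 0.17). Without sham LV replicate 1 the LV medians were −0.036 for the cyclins (3 of 7 above 0) and −0.00094 for the transcription factors (2 of 4). Counted over both ventricles, 28 of 47 genes were above 0 in each, as were 14.3% of all tested genes, and 1 gene, Ccnd3, was below 0 in each (16.1%). None of the 47 genes was a DEG in either response.

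With all libraries, the replication genes had a smaller median than the 20 mitosis genes in the RV, a difference that was not tested. Of 7 (Mcm2 to Mcm7 and Pcna), 4 were above 0 in the LV (median 0.09) and 7 in the RV (median 0.14), the latter 4 (median 0.07) without both atrial-rich libraries. Without VO RV replicate 2 the RV median was 0.096, that of Pcna, close to the median of the mitosis genes without that library. The LV median was −0.063 without sham LV replicate 1 and −0.0038 without VO LV replicate 3 (3 of 7 above 0 each). Mcm2, a helicase subunit, was at 12.7, 14.6 and 16.5 FPKM in sham LV, 15.9, 13.9 and 20.1 in VO LV, 15.1, 16.2 and 16.2 in sham RV and 14.2, 17.4 and 16.9 in VO RV. Mcm7 was at 27.5, 28.1 and 24.7 FPKM in sham LV, 25.1, 22.2 and 25.0 in VO LV, 24.3, 24.9 and 22.5 in sham RV and 25.1, 27.5 and 27.4 in VO RV. Its RV groups did not overlap, and the log2 difference was 0.16 (limma adjusted p = 0.632). Pcna, the sliding clamp of DNA polymerase, was at 70.4, 92.4 and 85.0 FPKM in sham LV, 76.9, 66.4 and 86.9 in VO LV, 74.1, 70.0 and 73.9 in sham RV and 76.5, 83.2 and 78.9 in VO RV. Its LV response was −0.11 and its RV response 0.13 (log2). The former was −0.0091 without VO LV replicate 2 and −0.22 without sham LV replicate 1.

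**Figure D5:**
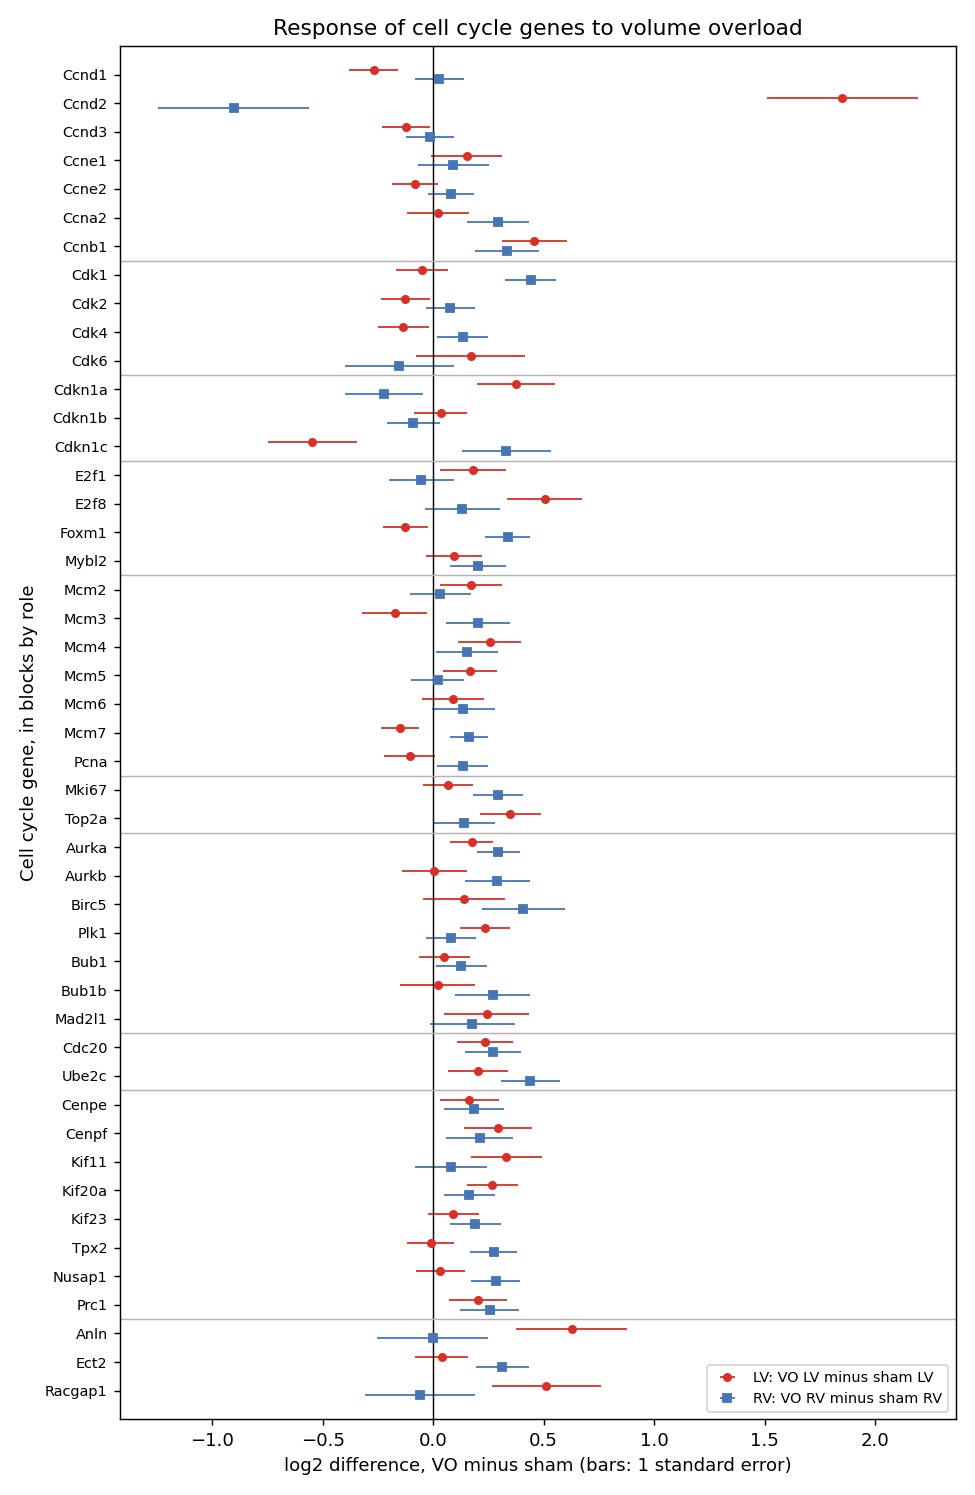
Log2 difference of VO from sham (x axis, bars 1 standard error from limma) for each gene, in blocks by role, in the LV (circles) and the RV (squares). Ccnd2 is at 1.85 in the LV and −0.90 in the RV, and the other 46 genes lie between −0.55 and 0.63.

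The CDK inhibitors did not move together. Cdkn1c (p57), which restrains division in development, was at 11.2, 17.0 and 9.69 FPKM in sham LV and 9.72, 6.85 and 8.44 FPKM in VO LV, a log2 difference of −0.55 with overlapping groups (limma adjusted p = 0.142), and −0.32 without sham LV replicate 2. In the RV it was at 12.7, 10.3 and 11.0 FPKM in sham and 11.97, 16.7 and 14.6 FPKM in VO, a log2 difference of 0.33 that was 0.22 without VO RV replicate 2. All VO LV libraries lay below all VO RV libraries, with a fitted log2 difference of −0.76 (limma adjusted p = 0.251). Cdkn1a (p21), the inhibitor that p53 induces, was at 15.1, 20.3 and 23.7 FPKM in sham LV and 22.7, 26.8 and 26.4 FPKM in VO LV. In the RV, Cdkn1a was at 19.6, 21.4 and 28.7 FPKM in sham and 21.9, 19.8 and 17.1 FPKM in VO. Its LV response was 0.37 and its RV response −0.22 (log2), which were 0.20 without sham LV replicate 1 and −0.06 without sham RV replicate 3. The VO LV libraries lay above the VO RV libraries. Cdkn1b (p27) was the most abundant of the 3 and nearly level, at 49.7, 44.7 and 52.7 FPKM in sham LV, 53.9, 49.0 and 47.7 in VO LV, 54.9, 48.0 and 45.9 in sham RV and 54.5, 45.9 and 39.7 in VO RV.

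Between the overloaded ventricles, 0 of 47 genes were DEGs by limma, against 0.00719% of all tested genes. At the nominal threshold, Ccnd2 was higher in VO LV (3.74% of all tested genes were) and Cdkn1c lower (3.6%). The log2 difference of LV from RV was above 0 for 13 of 47 genes (27.7%, against 50%), with a median of −0.07 against 0.00, and for 0 of 8 spindle genes. Groups did not overlap for Ccnd2 and Cdkn1a, which were higher in VO LV (2 genes; 8.45% of all tested genes), and for Cdk4, Cdkn1c, Foxm1 and Aurka, which were lower (4 genes; 7.69%). Without the atrial-rich VO RV replicate 2, 20 of 47 were above 0 (median −0.02), and without both atrial-rich libraries 21 of 47 were (median −0.02), with 4 of 8 spindle genes. Without VO LV replicate 2, 26 of 47 were above 0 (median 0.017). Fibroblast markers had a median log2 difference of −0.55 with 6 of 8 lower at the nominal threshold, 9 of 9 cardiomyocyte markers were above 0 (median 0.32, 3 higher at that threshold), 0 of 8 macrophage markers were above 0, and the part of these cells was not tested.

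A difference between the ventricles' responses was called for Ccnd2 alone among the 47 genes, where 3.95% of all tested genes were DEGs. At the nominal threshold, Ccnd2 and Cdkn1a responded more in the LV (12.8% of all tested genes) and Cdk1, Cdkn1c and Foxm1 less (10.2%). The median was −0.08 against −0.05 over all tested genes, and 19 of 47 genes were above 0 (40.4% against 45.7%). Without both atrial-rich libraries 24 of 47 were above 0, as were 24 of 47 without VO LV replicate 2 (median 0.0093). Without sham LV replicate 1, 18 of 47 were above 0 (median −0.13). Foxm1 was at 7.94, 8.03 and 7.62 FPKM in VO LV, below all sham LV libraries, and at 8.54, 8.43 and 9.98 FPKM in VO RV, above all sham RV libraries. The LV response of Foxm1 minus that of the RV was −0.46 (log2, standard error 0.14, limma adjusted p = 0.0841), that of Cdk1 was −0.49 (limma adjusted p = 0.102) and that of Cdkn1c −0.88 (limma adjusted p = 0.0921). E2f1, by contrast, was at 8.24, 7.47 and 8.52 FPKM in VO LV and 9.17, 7.65 and 8.27 FPKM in VO RV, overlapping the sham groups in both ventricles. Cardiomyocyte markers had a median response difference of 0.47 (3 of 9 were DEGs, higher) and macrophage markers one of −0.58 (1 of 8 was a DEG, lower). Endothelial markers (median −0.29, 0 of 7 above 0) and fibroblast markers (median −0.36, 1 of 8 above 0) were also below 0 on the median, and the part of these cells was not tested.

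A wider list of the same pathway, 101 tested genes from licensing factors to the condensins and the retinoblastoma family, held 0 DEGs by limma in all 5 comparisons. Of all tested genes, 0% to 3.98% were DEGs in these comparisons. In the RV, 78 of the 101 were above 0 under VO (median 0.16), against 51.3% of all tested genes. At the nominal threshold 6 were higher (1.88% of all tested genes were) and 0 lower (3%). Without both atrial-rich libraries 72 of 101 were above 0 (median 0.11). By sublist, 25 of 28 kinetochore and spindle genes were above 0 (median 0.25), as were 20 of 23 genes of chromosome condensation and separation (median 0.22) and 21 of 25 replication genes (median 0.13). Of 16 genes of the retinoblastoma, E2F and MuvB group 7 were (median −0.02, and −0.16 without VO RV replicate 2), and of 9 other inhibitors and arrest genes 5 were (median 0.01). In the LV, 55 of 101 were above 0 (median 0.03, and 0.0016 without sham LV replicate 1), against 46.9% of all tested genes. At the nominal threshold 9 were higher there (9.14%) and 2 lower (6.56%). Only 5 of the 25 replication genes were above 0 in the LV (median −0.05, and −0.08 without sham LV replicate 1). The smallest adjusted p of the LV response belonged to Tob1, an antiproliferative protein, with a log2 difference of 0.61 (limma adjusted p = 0.0622), then Rb1, the retinoblastoma protein itself, with −0.70 (limma adjusted p = 0.0723), and Nek2, a centrosomal kinase, with 0.88 (limma adjusted p = 0.0795). Tob1 was at 21.2, 18.6 and 25.8 FPKM in sham LV and 29.3, 35.1 and 35.8 FPKM in VO LV, without overlap. In the RV response the 3 with the smallest p were Tacc3, Kif22 and Kif2c, all of the spindle, with log2 differences of 0.46, 0.39 and 0.30 (limma adjusted p = 0.459, 0.527 and 0.536). Between the sham ventricles they were Lig1 (−0.51), Zwilch (−0.39) and Tob1 (−0.44), between the VO ventricles Gadd45a (0.55), E2f5 (−0.50) and Tacc3 (−0.26), and for the response difference Tob1 (0.69), Rb1 (−0.86) and Nuf2 (−0.67).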

How the data were processed

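RNA of 12 libraries was sequenced by the authors after poly-A selection. Per the submitters' processing notes, reads were aligned with HISAT2 2.0.5 and counted with featureCounts 1.5.0-p3, and the authors turned the counts into the deposited FPKM. The genome build and strand setting are not given in the sources used here. No value column was left unmapped. Multiplied by gene length, values below 200 reads were whole numbers of reads in 100% of cases (tolerance 0.02), which gave back the reads. FPKM were divided by median-ratio size factors (0.991 to 1.00), and log2(FPKM + 0.5) was tested with limma 3.58.1 in R 4.3.3 (1 model of 4 groups, eBayes with trend, Benjamini-Hochberg over 13910 genes). Single genes were compared by exact two-sided permutation. DESeq2, listed in the notes, was not run.

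The genes, wider lists, markers and motifs were chosen with earlier results of these data known. Values in every library are given for DEGs, for the 3 genes with the smallest p in each direction of each comparison, and for 12 index genes (among them Mki67, Top2a, Cdk1 and Pcna). Scaling, pseudocount, filter, model, covariates and each library left out were varied, and the gene-length trend was removed as an alternative chosen after seeing the data.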

Additional observations from a re-analysis of the deposited data

Results flagged for a closer look

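For Ccnd2, the LV and RV responses to VO differed by 2.75 on the log2 scale (limma adjusted p = 0.0257), with every VO LV library above every sham LV library and every VO RV library below every sham RV library. For Foxm1, every library moved the opposite way to Ccnd2 in each ventricle, and the responses differed by −0.46, which did not pass the test (limma adjusted p = 0.0841). Over the alternatives other than single libraries left out, the Foxm1 adjusted p from limma ranged from 0.0481 to 0.145.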

How the results depend on the processing

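In the comparison of the sham ventricles and in the response difference, the count of DEGs among the 47 genes was 1, and it was 0 with all genes above 0 tested, with the replicate block, and without both atrial-rich RV libraries. With array weights it was 2 in the LV response (Ccnd2 and Ccnb1) and 2 in the response difference (Ccnd2 and Foxm1). In the LV response the count of 0 became 1 (Ccnd2) with a pseudocount of 0.1, a mean FPKM of at least 1, protein-coding genes only, a separate fit, voom on the recovered reads, or the atrial covariate. With a library left out it ranged from 0 to 1 in these 3 comparisons. It was 0 in the RV response and between the VO ventricles under every alternative run. The median response difference moved from −0.08 to 0.019 without both atrial-rich libraries and to 0.0093 without VO LV replicate 2. Cdkn1b in the RV response turned from −0.09 to 0.024 without VO RV replicate 3 (range with a library left out −0.202 to 0.024). Same-numbered LV and RV libraries had correlations from 0.0378 to 0.123 in the sham pairs and from −0.218 to 0.0536 in the VO pairs. Y-linked genes matched in the 3 sham pairs but were high in VO RV replicate 3 but not in VO LV replicate 3, so the replicate number was not taken as a pairing. Under the replicate block the Ccnd2 differences were the same in size, with limma adjusted p = 0.0762 between the sham ventricles, 0.108 in the LV and 0.0648 for the response difference, so that both calls ended.

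With 3 libraries a group, the exact permutation test cannot pass 0.05. Y-linked expression differs between all VO LV libraries and most sham LV libraries, and its part in the LV response was not tested beyond the covariate. The libraries low in Y-linked genes cannot test it, because only 1 of them is from sham LV. Whole free walls do not show which cells carry a transcript.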
